A study of Homo sapiens with 4 samples.

Results

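The genes of the cytosolic ribosomal proteins were followed in cultures labelled K1, a human line described as thyroid cancer. Members were chosen by symbol, as RPSA, RPLP0, RPLP1, RPLP2 and every symbol that starts with RPL or RPS and a digit, without the S6 kinases, RPS4Y copies, readthrough entries (symbols with a hyphen) and pseudogenes. This gave 84 of 20510 genes in the table, of which 77 encode core proteins (31 of the small and 46 of the large subunit) and 7 encode paralogs, copies that resemble a core protein. FAU, which encodes a ribosomal protein fused to a ubiquitin-like protein, and RACK1, a scaffold protein of the small subunit, carry other symbols and are described separately. The rule used names only, not measured values, but it was set with earlier results of these data known.

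The study compared 2 libraries from cells with a control short hairpin RNA (shCtrl) and 2 from cells with a hairpin against the T-box repressor TBX3 (shTBX3), sequenced on the BGISEQ-500. All 4 came from the same line and medium. The sources used here give neither the vector, nor the hairpin sequences, nor whether a line was a clone or a pool. Expression is in FPKM, fragments scaled for transcript length and library total. The shCtrl libraries are called controls and the shTBX3 libraries knockdown, after their labels. TBX3 itself read 48.94 and 54.77 in the controls against 27.81 and 36.99 after knockdown, lower in both (log2 fold change -0.67 ± 0.17, SE), but its limma adjusted p was 0.428. Of the thyroid markers, TG, TSHR, NKX2-1 and FOXE1 never exceeded 0.31, PAX8 lay between 1.20 and 1.88 and SLC5A5 between 2.42 and 3.28. Of 7 intestinal markers 6 were tested: CDX2 lay between 116.78 and 147.75, CDX1 was at most 0.46, and 5 of the 6 had a log2 fold change below 0, as deposited and under 3 other scalings. PHGR1 passed, at 12.43 and 13.45 in the controls and 0.83 and 1.09 after knockdown (log2 fold change -2.83 ± 0.16, limma adjusted p = 0.00779), and its part in the results below was not tested. The values of short genes moved in steps that correspond to about 8540000 to 8760000 fragments per library. Summed FPKM was 506448 and 509852 in the controls and 506901 and 523222 after knockdown.

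Ribosomal proteins assemble with ribosomal RNA in the nucleolus into the small subunit, which reads the mRNA, and the large subunit, which forms peptide bonds. Their genes are spread over the genome and are expressed together in every growing cell. Their mRNAs begin with a 5′ terminal oligopyrimidine (TOP) tract, a C followed by an unbroken run of C and T, through which mTOR and the RNA-binding protein LARP1 control translation. Some ribosomal proteins, among them RPL5 and RPL11, also bind MDM2 when ribosome assembly fails.

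The start sites show what the core genes share beyond their names. RefSeq promoters (GRCh38.p14) were matched by symbol for 68 members, 62 of them core genes. A C at the first transcribed base followed by at least 4 bases that are each C or T was found at a listed start of 46 of the 62 core genes (74.2%), against 5.14% of all 27305 genes with a listed promoter and 6.15% of the other genes of the FPKM table. The windows below run from 15 bases before to 15 bases after the transcription start, with the run of C and T from the start in capitals. They are from 5 core genes with different roles, all among the 46 with this run. No core gene without it is shown here or below.
RPS6 (chr9:19380222-19380251, minus strand): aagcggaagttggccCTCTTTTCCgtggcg
RPSA (chr3:39406705-39406734, plus strand): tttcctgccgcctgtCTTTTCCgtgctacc
RPS19 (chr19:41860240-41860269, plus strand): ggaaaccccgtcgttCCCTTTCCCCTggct
RPLP1 (chr15:69452803-69452832, plus strand): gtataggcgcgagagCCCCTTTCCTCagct
RPL41 (chr12:56116618-56116647, plus strand): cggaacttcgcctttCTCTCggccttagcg

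RPS6 is the target of the S6 kinases, RPSA is also known as a precursor of the laminin receptor, RPS19 is mutated in Diamond-Blackfan anaemia, RPLP1 belongs to the stalk that recruits elongation factors, and RPL41 is the shortest ribosomal protein. Each of these windows has its first transcribed C in place and a tract of 5 bases (RPL41) to 11 bases (RPS19 and RPLP1). The longest tract was found in RPL39, at 19 bases. Where RefSeq lists several starts for a gene, the start with the longest tract was used.

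Only 1 of the 6 paralogs with a listed promoter, RPL22L1, had the tract at a listed start. The windows of the paralogs are set beside those of the core genes they resemble (RPL7 and RPL3 are not shown).
RPS27 (chr1:153990747-153990776, plus strand): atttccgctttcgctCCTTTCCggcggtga
RPS27L (chr15:63157463-63157492, minus strand): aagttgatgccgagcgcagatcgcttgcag
RPL26 (chr17:8383179-8383208, minus strand): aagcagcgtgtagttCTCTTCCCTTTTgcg
RPL26L1 (chr5:172958714-172958743, plus strand): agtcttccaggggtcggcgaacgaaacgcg
RPL22 (chr1:6199581-6199610, minus strand): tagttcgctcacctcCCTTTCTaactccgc
RPL22L1 (chr3:170870181-170870210, minus strand): cgcggccgtagcttcCTCTCTgctctcgcg
RPL36A (chrX:101390996-101391025, plus strand): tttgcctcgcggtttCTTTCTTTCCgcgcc
RPL36AL (chr14:49620612-49620641, minus strand): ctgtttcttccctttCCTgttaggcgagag
RPL10 (chrX:154398362-154398391, plus strand): caggcggaggagcgcCTCTTTCCCTTCggt
RPL10L (chr14:46651767-46651796, minus strand): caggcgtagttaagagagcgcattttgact
RPL7L1 (chr6:42879601-42879630, plus strand): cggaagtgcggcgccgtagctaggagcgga

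In RPS27L, RPL26L1, RPL10L and RPL7L1 the listed start does not begin with C, and in RPL36AL the run of C and T ends after 3 bases. Other elements were searched on both strands of the 300 bases around the listed starts. The ETS core CCGGAAG was present in 35.5% of core genes, in 12.2% of all genes and in 17.9% of the 13522 other genes of the FPKM table, and in 2 core genes it overlapped the tract. The GC box GGGCGG was present in 58.1% of core genes, above the 48.3% of all genes but below the 68.1% of the FPKM table. The YY1-type element GCCATCTT was present in 9.68%, against 3.52% of all genes and 5.09% of the FPKM table. The TATA box TATAAA was present in 8.06%, against 14.0% and 10.4%. A palindromic element of 10 bases, whose letters are not printed, was present in 6.45%, against 0.505% and 0.717%. The T-box element AGGTGTGA was present in 2 core genes, RPL10 and RPL15 (3.23%), against 1.21% of all genes and 1.2% of the FPKM table. These are matches of letters in a window, not measured binding.

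The core genes were among the most abundant transcripts of these cells. Members made up 56 of the 100 genes with the highest mean FPKM, and all 77 had a mean of at least 100, while the median of all genes in the table was 3.79. Members together held 17.62% and 17.53% of summed FPKM in the controls, and 17.69% and 18.81% after knockdown. One library thus stood above the other 3, and the other knockdown library lay next to the controls. Means were 17.6 ± 0.0636% for the controls and 18.3 ± 0.792% for knockdown (SD, 2 libraries each), and the difference of 0.675 percentage points became 0.115 without shTBX3 replicate 2 and 1.23 without shTBX3 replicate 1.

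Transcript levels per length differed among core genes. The mean FPKM of core genes had quartiles of 727.9, 1012 and 1424, a span of 1.96-fold, and the medians of the small and the large subunit were both 1012. Beyond the quartiles the spread was wider, with 47.3-fold between the highest gene, RPS2, and the lowest, RPL22. RPS2, a small-subunit protein near the mRNA entry channel, stood at 5012.77 and 5448.69 in the controls and at 5836.61 and 7083.87 after knockdown. The stalk protein gene RPLP1 followed at 3024.29 and 2799.60 against 3238.83 and 3682.43, and RPL41 at 2946.44 and 3275.02 against 2773.02 and 3371.49. RPS2 and RPLP1 were higher in both shTBX3 libraries than in both controls, while RPL41 overlapped. RPL8, a protein near the peptidyl transferase centre, had means of 2118 ± 65.9 and 2326 ± 198, and RPLP0, the base of the stalk, 2134 ± 89.8 and 2286 ± 77.9 (SD, n = 2 each).

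At the other end, RPL22 stood at 130.50 and 115.77 in the controls and at 122.20 and 125.58 after knockdown, RPS23, a protein of the decoding centre, at 136.30 and 152.67 against 122.02 and 166.84, and RPL13 at 266.82 and 276.76 against 257.85 and 317.49. All 3 overlapped between groups. Where a near-identical copy exists, the fragments may have been split between both entries, so single levels are uncertain. Of 31 pseudogene entries of this family, 29 had a mean under 15, but RPL13AP5 stood between 943.61 and 1138.25, next to RPL13A at 1007.00 to 1326.53, and RPSAP58 between 388.24 and 497.65.

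**Figure D1:**
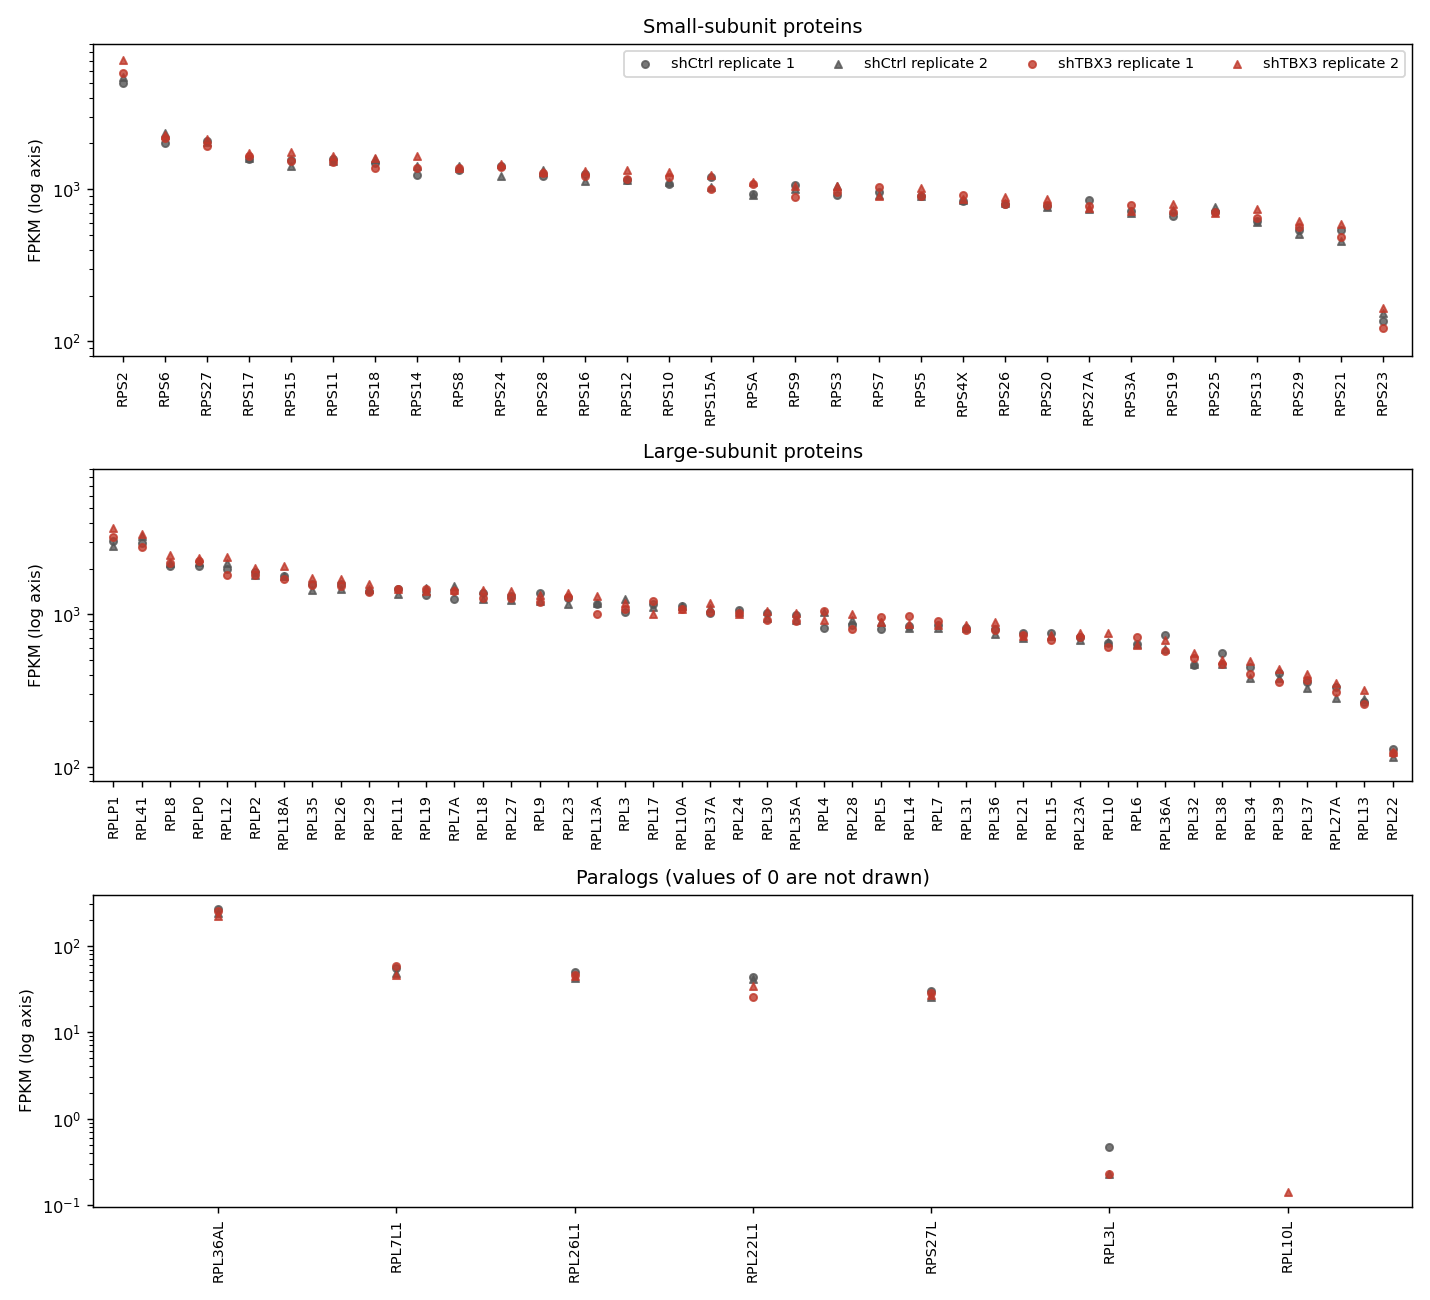
FPKM (log axis) of the 31 small-subunit genes, 46 large-subunit genes and 7 paralogs, ordered by mean, with 1 point for each of the 4 libraries (grey, shCtrl; red, shTBX3; circles, replicate 1; triangles, replicate 2). Core genes run from RPS2 at 5012.77 to 7083.87 down to RPL22 at 115.77 to 130.50. The points of a gene span little of this range, and those of neighbouring genes often overlap.

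The main comparison asked whether TBX3 knockdown changed these transcripts. No member passed the threshold of limma, a linear model with variance shared across genes, on log2(FPKM + 1): 0 of the 82 members tested had an adjusted p under 0.05, where 0.18% of all 13924 genes tested did (0.0718% higher and 0.108% lower). At an unadjusted p under 0.05 there was 1 member, the paralog RPL22L1, lower, where 6.67% of all genes passed (2.03% higher and 4.65% lower), and the smallest adjusted p was 0.65. The 2 members not tested, RPL3L and RPL10L, were below the filter of an FPKM of 1 in 2 libraries. In bulk RNA, a change in the number of cells of a kind and a change in RNA per cell cannot be told apart.

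The fold changes of core genes were small and their intervals bounded. They ran from -0.10 for RPS9 to 0.30 for RPS2 on the log2 scale. The 95% intervals of all 77 held 0 and lay within -0.45 (RPL36A) and 0.64 (RPS2). In this fit a doubling or a halving of any core gene was thus outside its interval. Each interval is for a single gene, without adjustment for the number of genes. With every gene above 0 FPKM kept, the SE of RPS2 was 0.27 instead of 0.14, so the bounds depend on the filter. In 70 of 82 members the shTBX3 mean was within 10% of the control mean. The median absolute log2 fold change was 0.07 for members, 0.10 for 617 other genes with a mean FPKM of at least 100 and 0.13 for all genes tested. The median SE was 0.12 for members and 0.16 for all genes.

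**Figure D2:**
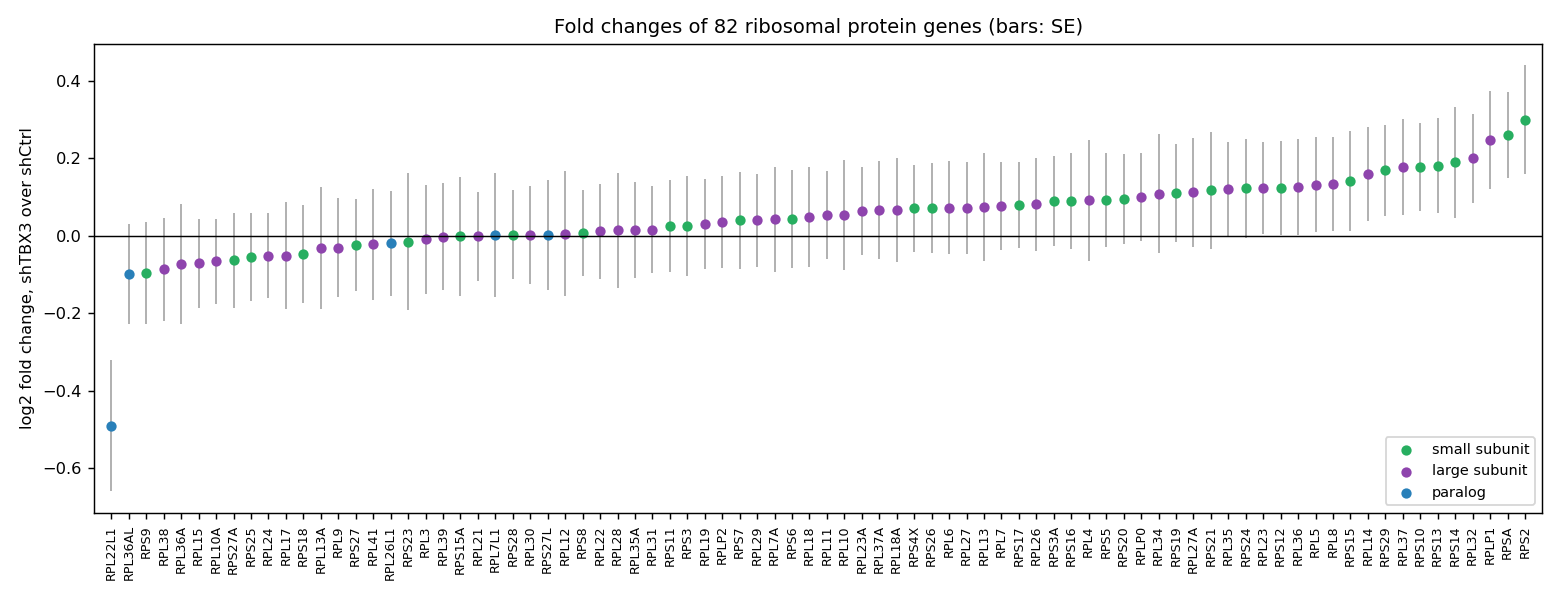
Log2 fold change (shTBX3 over shCtrl, vertical axis) of the 82 members tested, ordered by value, with bars for the SE of limma (green, small subunit; purple, large subunit; blue, paralogs). Core genes lie between -0.10 and 0.30, and RPL22L1 stands apart at -0.49.

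The direction of the family as deposited was kept after rescaling and by the median ratio, and turned under quantile normalization. With FPKM as deposited, 60 of 82 members (73.2%) had a log2 fold change above 0, where 46.9% of all genes did, and 22 below 0, where 53.1% did, with a median of 0.05 against -0.01 for all genes. Rescaling each library to the same sum shifts all genes alike: the share above 0 was then 61%, and the medians were 0.03 for members and -0.03 for all genes. Scaling by the median ratio of the other genes gave 67 members (81.7%) above and 15 below 0, with medians of 0.07 and 0.01. Quantile normalization gave 37 (45.1%) above and 45 below 0, and there the median of members was -0.01 and that of all genes 0.01. This scaling gives every library the same set of values, and members made up 56 of the 100 genes with the highest mean FPKM. A shift shared by the top genes is thus removed in part by the scaling itself. The value of a top gene such as RPS2 is tied to its rank. Without shTBX3 replicate 2, 44 members were above and 38 below 0 (median 0.01), and without shTBX3 replicate 1 they were 67 and 15 (median 0.11). The 617 other abundant genes had a median of 0.05 in the same fit, equal to that of the members to 2 decimals. Of these 617 genes, 378 lay above 0, so an excess above 0 was shared by other abundant genes. By subunit, 24 of 31 small-subunit genes and 34 of 46 large-subunit genes lay above 0, against 26 and 38 by the median ratio and 17 and 18 after quantile normalization. Without shTBX3 replicate 2, small-subunit genes were 20 above and 11 below 0, and large-subunit genes 21 above and 25 below. Leaving out any other library kept most genes of both subunits above 0. Both shTBX3 values lay above both shCtrl values in 18 of 82 members (22%), where 14.8% of all genes did, and below them in 3 members (3.66%), where 19.7% of all genes did. The 3 were RPL22L1, RPL10A (1144.20 and 1130.94 against 1081.44 and 1091.54) and RPL24 (1070.03 and 1042.83 against 1024.13 and 1013.66), the last pair named after their values were seen.

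The 5 largest positive fold changes belonged to RPS2, RPSA, RPLP1, RPL32 and RPS14. RPSA (chromosome 3, 39448207 to 39467746 in GRCh37, plus strand) stood at 930.48 and 911.25 in the controls and at 1083.07 and 1121.68 after knockdown. Its groups did not overlap and each was tight, with means of 920.9 ± 13.6 and 1102 ± 27.3 (SD, n = 2 each), and the log2 fold change was 0.26 ± 0.11 (SE, limma adjusted p = 0.767). The near-identical entry RPSAP58 had the same order, at 388.24 and 427.29 against 461.68 and 497.65. Fragments may have been split between both entries, so this is not a separate observation. RPS2 (chromosome 16, 2012059 to 2014842, minus strand), whose values are given above, differed by 0.30 ± 0.14 on the log2 scale (limma adjusted p = 0.812). It was 0.16 without shTBX3 replicate 2 and 0.04 after quantile normalization, and without shCtrl replicate 1, shCtrl replicate 2 and shTBX3 replicate 1 it was 0.24, 0.36 and 0.44.

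RPLP1 (chromosome 15, 69745153 to 69748544, plus strand) had a log2 fold change of 0.25 ± 0.13 (limma adjusted p = 0.832). That of RPLP1 became 0.15 without shTBX3 replicate 2 and 0.10 after quantile normalization. RPL32, a large-subunit protein, stood at 466.78 and 469.96 in the controls and at 515.17 and 561.39 after knockdown (limma adjusted p = 0.867), with no overlap. RPS14, the small-subunit gene of the 5q deletion in myelodysplasia, stood at 1240.97 and 1415.59 against 1375.53 and 1659.49, and its groups overlapped. The log2 fold change of RPS14 was 0.19, and 0.05 without shTBX3 replicate 2, 0.09 without shCtrl replicate 1, 0.32 without shTBX3 replicate 1, 0.28 without shCtrl replicate 2 and 0.08 after quantile normalization.

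The lowest core genes were RPS9, RPL38 and RPL36A, with log2 fold changes between -0.10 and -0.07 and overlapping groups. RPL38, which in mice affects the translation of Hox mRNAs, stood at 561.82 and 472.05 in the controls and at 469.23 and 500.66 after knockdown. RPL38 was high in shCtrl replicate 1, as was RPL36A, at 728.95 against 591.48, 575.46 and 677.34 in the other 3 libraries. RPS9 was low in shTBX3 replicate 1, at 891.52 against 1004.75 to 1068.97 elsewhere. The order of the groups rested on these libraries: without shCtrl replicate 1 RPL38 and RPL36A turned to 0.04 and 0.08, and without shTBX3 replicate 1 RPS9 and RPL36A turned to 0.03 and 0.04.

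Several members have roles outside the ribosome or in disease. RPL5 stood at 798.30 and 895.65 in the controls and 964.02 and 890.55 after knockdown, and RPL11, its partner in the complex with 5S rRNA that binds MDM2, at 1475.60 and 1361.84 against 1472.92 and 1469.67. Both overlapped between groups, with limma adjusted p of 0.931 and 0.979. RPS6 had means of 2169 ± 223 and 2229 ± 81.7 (SD, n = 2 each), and RPS3, which is also known for a part in DNA repair, 987.7 ± 96.2 and 1004 ± 69.7. RPS19 stood at 667.50 and 731.61 against 708.92 and 803.60, and RPS27A, made as a fusion with ubiquitin, at 852.79 and 743.11 against 772.03 and 750.91. RPLP2 of the stalk had means of 1867 ± 63.4 and 1916 ± 137, and RPL39, which lines the exit tunnel, 397.8 ± 23.7 and 398.3 ± 52.8. None of these log2 fold changes exceeded 0.14 in size.

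Of the ribosomal proteins under other symbols, FAU read 456.97 and 390.35 in the controls against 472.38 and 466.30 after knockdown, and RACK1 read 1874.51 and 1796.64 against 1857.59 and 1949.70. The groups of FAU did not overlap and those of RACK1 did, with limma adjusted p of 0.926 and 0.979.

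Large-subunit over small-subunit FPKM was 1.383 and 1.367 in the controls and 1.340 and 1.328 after knockdown, lower in both knockdown libraries. The difference of -0.041 became -0.009 without RPS2, where the ratios were 1.598 and 1.599 against 1.582 and 1.597. The ratio of subunit medians was 0.958 and 1.005 against 0.985 and 0.906, and overlapped. No p is given for sums over the members.

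The libraries of a group differed from each other. Of the 82 tested, 49 had their highest value in shTBX3 replicate 2, 15 in shCtrl replicate 1, 10 in shTBX3 replicate 1 and 8 in shCtrl replicate 2. Within shTBX3, replicate 2 lay above replicate 1 by a median of 0.14 on the log2 scale, and 62 of 82 members were higher there. Within shCtrl, replicate 2 lay below replicate 1 by a median of 0.04, and 50 of 82 members were lower. Over all genes tested, the same medians were 0.00 and 0.01. At replicate 1 the median of shTBX3 minus shCtrl was -0.02, with 37 members above and 45 below 0, and at replicate 2 it was 0.13, with 64 above and 18 below.

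**Figure D3:**
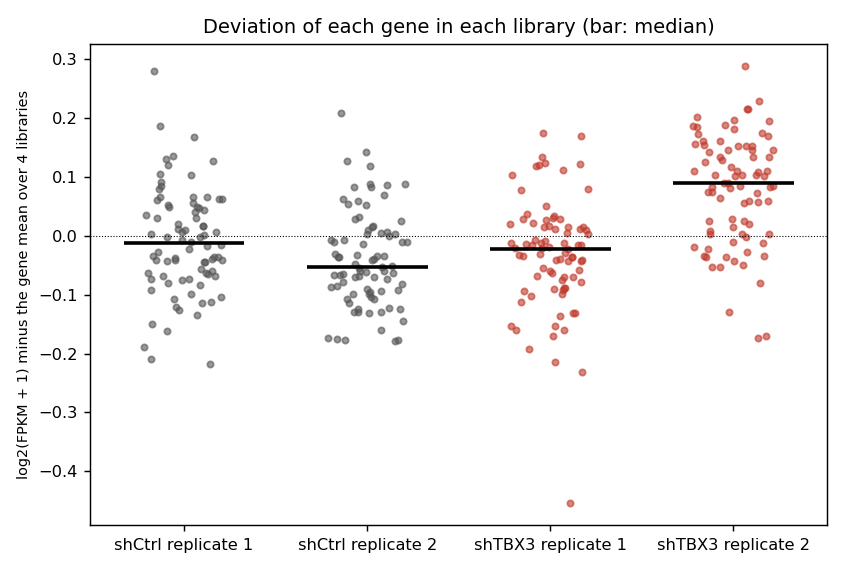
Deviation of log2(FPKM + 1) of each of the 82 members tested from its own mean over the 4 libraries, by library, with bars for the median. The median is 0.09 in shTBX3 replicate 2 and lies between -0.05 and -0.01 in the other 3 libraries; the lowest point, in shTBX3 replicate 1, is RPL22L1.

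The replicate differences also moved with the length of the protein. Among the 26 core genes with the shortest coding sequences (75 to 405 nucleotides), 20 were lower in shCtrl replicate 2 than in replicate 1 (median -0.11), and 25 were higher in shTBX3 replicate 2 than in replicate 1 (median 0.15). Among the 25 longest (582 to 1281 nucleotides), 16 and 15 were higher in replicate 2, with medians of 0.03 and 0.05. Across the 77 core genes the correlation of log2 coding length with the replicate difference was 0.38 (Pearson; Spearman 0.43) in shCtrl and -0.36 (Spearman -0.35) in shTBX3. That with the group difference was 0.13 (Spearman 0.06) over both replicates, but 0.48 at replicate 1 and -0.31 at replicate 2. Coding length was taken up after these correlations had first been seen with the annotated transcript length, which is implausibly long for some members. With that first measure they were 0.23 (Spearman 0.28) in shCtrl and 0.01 (Spearman -0.02) in shTBX3. For the group difference they were then 0.14 over both replicates, 0.2 at replicate 1 and -0.02 at replicate 2. The relation thus depends on the measure. These correlations are across genes of the same libraries, which are not independent, and coding length stands in for the transcript length. The 5079 other coding genes with coding lengths in the same range had medians of -0.04 in the controls and 0.00 after knockdown. The part of length in the group comparison was not tested.

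**Figure D4:**
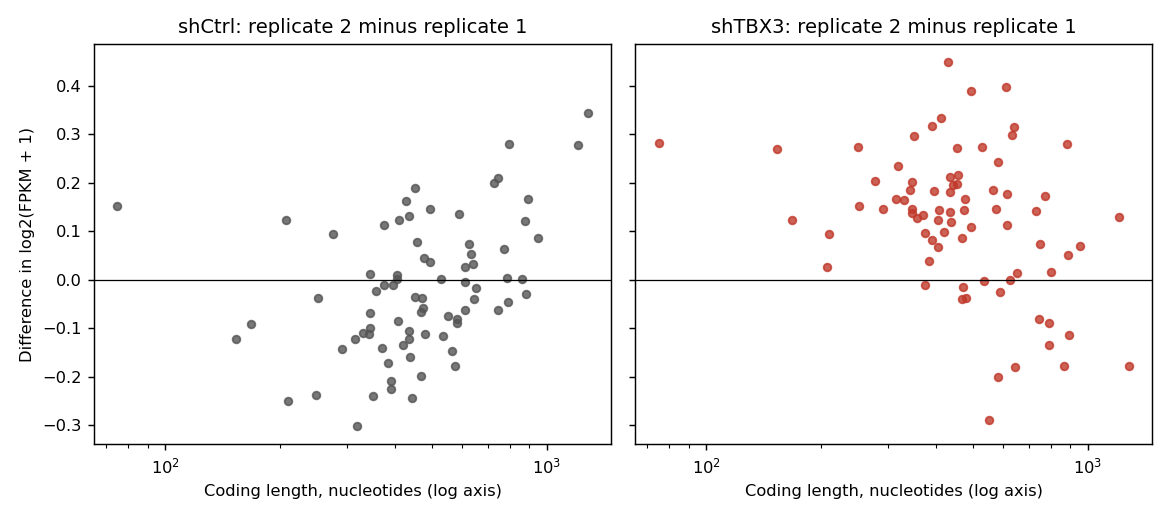
Replicate 2 minus replicate 1 in log2(FPKM + 1) (vertical axis) against coding length in nucleotides (log axis) for the 77 core genes, in shCtrl (left) and shTBX3 (right). Short genes lie mostly below 0 in shCtrl and mostly above 0 after knockdown, with Pearson correlations of 0.38 and -0.36.

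The paralogs were lower than their core genes, and RPL22L1 held the largest difference between groups. RPL22L1 (chromosome 3, 170582664 to 170587997 in GRCh37, minus strand) encodes a paralog that can take the place of RPL22. It stood at 43.06 and 40.95 in the controls and at 25.48 and 34.37 after knockdown. Both knockdown values lay below both controls, with means of 42.0 ± 1.49 and 29.9 ± 6.29 (SD, n = 2 each) and a log2 fold change of -0.49 ± 0.17. The unadjusted p of limma was 0.027 and the adjusted p 0.65, so the difference did not pass. Its size rested on the shTBX3 libraries, at -0.70 without replicate 2 and -0.28 without replicate 1, and stayed negative under every scaling and without any library. RPL22 overlapped between groups (values above), and RPL22L1 amounted to 33% and 35.4% of RPL22 in the controls and 20.9% and 27.4% in shTBX3.

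RPL36AL was the most abundant paralog, at 266.68 and 236.55 in the controls and 247.62 and 221.65 after knockdown, or 32.7% to 43.0% of RPL36A. The log2 fold change of RPL36AL was -0.10, with a range of -0.19 to -0.01 when 1 library was left out. RPL7L1, which acts in ribosome assembly, lay between 45.81 and 58.56, RPL26L1 between 41.92 and 49.50 and RPS27L, a paralog known as a p53 target, between 25.09 and 29.88. These 4 overlapped between groups, and the last 3 held 5.38% to 6.5%, 2.60% to 3.12% and 1.23% to 1.48% of RPL7 (812.99 to 900.85), RPL26 (1473.21 to 1697.03) and RPS27 (1921.72 to 2136.63). RPL3L, which is known from muscle, was at 0.47, 0.23, 0.23 and 0 in the 4 libraries, and RPL10L, which is known from testis, was listed at 0 in 3 libraries and at 0.14 in shTBX3 replicate 2. Their core genes RPL3 and RPL10 lay between 1036.43 and 1256.05 and between 609.16 and 758.40. The readthrough entry RPL36A-HNRNPH2, which shares sequence with RPL36A, stood at 32.57 and 32.74 in the controls and 25.33 and 25.58 after knockdown (limma adjusted p = 0.65), and was named after its values were seen.

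**Figure D5:**
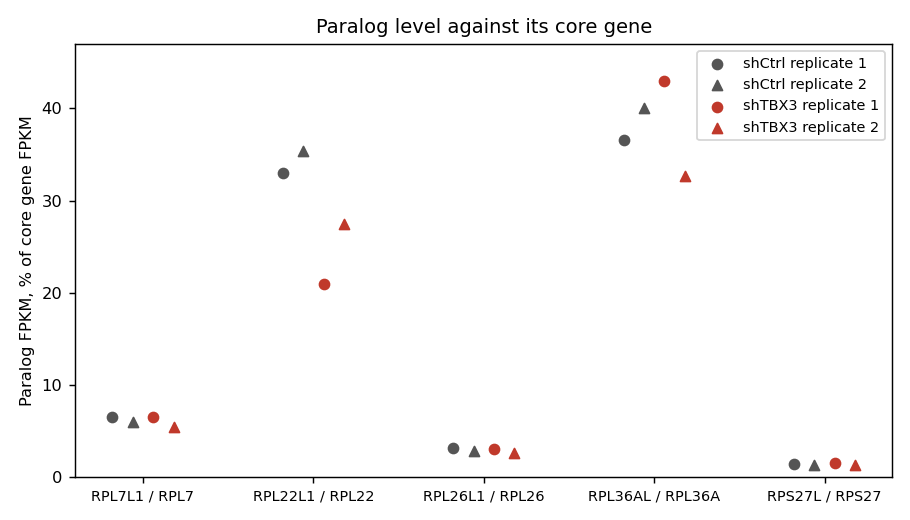
FPKM of each tested paralog as a percentage of the FPKM of its core gene, in the 4 libraries (grey, shCtrl; red, shTBX3; circles, replicate 1; triangles, replicate 2). RPL22L1 is at 33% and 35.4% in the controls and at 20.9% and 27.4% in shTBX3, while the other 4 pairs overlap.

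Of the 77 core genes, 29 hold a snoRNA gene within their bounds, as annotated by GENCODE. Their median log2 fold change was 0.06, as was that of the 48 without one. Core genes with a TOP tract at a listed start had a median of 0.05 (46 genes) and those without one 0.05 (16 genes), and their median FPKM was 1010 and 1030. A run of C and T a few bases from the listed start, as in RPL10A and RPL17, was not counted. The 16 may thus include genes with a tract at a start that is not listed. These medians are descriptions, and the difference was not tested.

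Genes that build or control ribosomes gave no call in limma either. None of 50 ribosome biogenesis genes, 18 other TOP mRNAs or 15 regulators around mTOR and MYC passed the adjusted threshold or an unadjusted p of 0.05. Of all genes tested, 0.18% and 6.67% did. At a share of 0.18%, the lack of an adjusted call in lists of this size says little about them. Of the biogenesis genes, 40 lay above 0 and 10 below (median 0.14), but 22 above and 28 below without shTBX3 replicate 1 (median -0.03) and 27 above and 23 below without shCtrl replicate 2 (median 0.02). Leaving out the other library of each group moved them the other way, to 45 above and 5 below without shTBX3 replicate 2 (median 0.30) and 43 above and 7 below without shCtrl replicate 1 (median 0.26). NCL, which encodes nucleolin, had the smallest p of them, at 229.38 and 212.36 in the controls and 301.01 and 244.48 after knockdown (limma adjusted p = 0.816). Of the other TOP mRNAs 11 lay above 0 and 7 below, with the snoRNA host SNHG1 lowest in p (123.22 and 95.64 against 146.98 and 130.89, limma adjusted p = 0.801). Without shCtrl replicate 1 they were 7 above and 11 below, and without shTBX3 replicate 2 they were 8 above and 10 below. They were 14 above and 4 below without shCtrl replicate 2 and also by the median ratio scaling. Of the regulators 10 lay above and 5 below, and between 8 and 11 above with other scalings or 1 library left out. RPS6KB1, the S6 kinase that phosphorylates RPS6, stood at 7.61 and 7.15 against 10.00 and 8.52 (limma adjusted p = 0.832). Of 6 genes around MDM2 and ribosomal stress, 5 lay above 0 (4 after rescaling to the same sum, or when any 1 of 3 libraries was left out) and none passed. CDKN1A, the p53 target p21, had the smallest p, at 5.50 and 10.93 against 8.87 and 13.43 (limma adjusted p = 0.918).

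The mitochondrial ribosomal proteins, encoded by a separate set of nuclear genes, were set beside the cytosolic ones. Of 79 tested, none passed the adjusted threshold, where 0.18% of all genes did. Of the same 79, 43 lay above and 36 below 0 with a median of 0.02. Without shCtrl replicate 1 the counts were 61 and 18, without shCtrl replicate 2 they were 29 and 50, and without shTBX3 replicate 2 they were 53 and 26. At an unadjusted p of limma under 0.05 there were 2 of the 79, where 6.67% of all genes passed. MRPS6 had the smallest p (51.04 and 45.97 against 64.37 and 60.90, limma adjusted p = 0.65). Their median FPKM was 42.2, against 1010 for the core cytosolic genes. No difference between both families was tested.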

How the data were processed

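The authors deposited FPKM for 20510 genes in 4 libraries. HISAT, Bowtie2, RSEM and hg19 are named per the submitters' processing notes, without versions or roles, and no source used here states strandedness. Because FPKM is relative to the library total, a change in abundant genes shifts the rest.

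Genes reaching 1 FPKM in 2 or more libraries were tested on log2(FPKM + 1) (pseudocount 1) with limma 3.58.1 in R 4.3.3 (lmFit, eBayes with trend, two-sided, Benjamini-Hochberg over 13924 genes, threshold 0.05; 2 residual and 4.11 prior degrees of freedom). Fold changes are on that scale, which understates low genes. The fit was tested on simulated data. A first simulation, with variances taken from the fitted genes, gave more false calls than the threshold allows. It was replaced by one with variances drawn from the fitted prior, which follows the assumption of limma, so it does not test that assumption. The labels give duplicates but not separate cultures, so p-values measure the spread between libraries, which may be technical.

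Members and lists were chosen with earlier results of these data known, and the tract definition, the motifs and the use of coding length after values had been seen. A permutation test was planned for the members' share and the subunit ratio; they are given as values without p, since the members form a chosen score. Named genes are the 5 highest and 5 lowest in level, the 5 with the largest fold change in each direction, the paralogs with their core genes, genes of known roles and the smallest p of each list; RPS23, RPL13, RPL13A and the pseudogene entries were added after their values were seen. Some listed genes are not reported here. Depth was read from microRNA genes, of whose low values between 83.0% and 86.4% were whole within 0.05 fragments. On coding length alone, core genes held at least 352 fragments in any library (median 4150), a counting error of at most 5.3% (median 1.6%). Some paralogs held fewer, with 71.6 to 121 for RPL22L1 and 47.3 to 55.0 for RPS27L, so their counting error is larger. Gene positions and coding lengths are from GENCODE release 44 on GRCh37 and matched all 84 members; promoters are from RefSeq. Alternatives were other pseudocounts, filters, scalings and limma settings, the replicate number as a block, and each library left out.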

Additional observations from a re-analysis of the deposited data

How the results depend on the processing

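Limma called 0 members in all 14 alternatives and 0 to 2 at an unadjusted p under 0.05, while calls over all genes ran from 0 (every gene above 0 kept) and 7 (pseudocount 0.1) to 55 (without shCtrl replicate 1), 36 (robust hyperparameters, and without shCtrl replicate 2), 12 (without shTBX3 replicate 1) and 132 (replicate number as a block), against 25. Same-numbered libraries deviated together with a correlation of 0.26 over genes and 0.06 over members, but the labels do not pair them; under the block the smallest adjusted p of a member was 0.216, for RPL22L1. The count of members above and below 0 was 60 and 22, and became 37 and 45 with a median of -0.01 (-0.0078) under quantile normalization. By the median ratio of other genes they were 67 and 15 with a median of 0.0739, and the median ran from 0.006 to 0.11 with single libraries left out, where 44 to 67 members lay above and 15 to 38 below 0. Of 140 recomputed fold changes of the 5 highest and 5 lowest members by fold change, 136 kept their direction. Many could not reverse, since other filters, limma settings, the block and protein-coding genes alone do not alter the log2 fold change. The pseudocount of 0.1 moved it little. The 4 that reversed, all among the lowest and all small, came from leaving out single libraries. They were RPL38 (0.038) and RPL36A (0.0778) without shCtrl replicate 1, and RPS9 (0.0259) and RPL36A (0.0447) without shTBX3 replicate 1. With single libraries left out, RPS9 ran from -0.217 to 0.0259, RPL38 from -0.2126 to 0.038 and RPL36A from -0.2232 to 0.0778. The ratio of the subunits differed by -0.041 and by -0.009 without RPS2, a choice made after the data were seen, as was the fit on protein-coding genes alone. The causes were not tested. With 2 libraries a group, differences near the median SE of 0.12 cannot be resolved. Larger ones, of 0.30 for RPS2 and -0.49 for RPL22L1, did not pass the adjusted threshold either.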
